A study of Sus scrofa with 6 samples.

Results

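The non-fibrillar and beaded collagens examined here are 10 genes that encode the chains of collagens VI, VIII, XII, XIV, XV, XVI and XVIII. They were taken by name from the expression table, which lists 13288 genes, and all 10 were found (COL6A1, COL6A2, COL6A3, COL6A6, COL8A1, COL12A1, COL14A1, COL15A1, COL16A1 and COL18A1). RNA came from the ventricles of male Tibetan minipigs at week 12 after surgery. The DAC group (n = 3) had sutures tightened around the descending aorta to raise the pressure on the heart side of the constriction, and the sham group (n = 3) had the chest opened with no constriction. Each sample is a separate animal, called sham replicates 1 to 3 and DAC replicates 4 to 6, and the age of the animals is not given in the sources used here.

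Collagens that do not form the thick banded fibers of the interstitium organize the matrix around and between them. Collagen VI is assembled from an α1, an α2 and a further chain, usually α3, into beaded microfilaments that lie between cells and the interstitial fibers, and in muscle it anchors the cell surface to the surrounding matrix. Collagens XII, XIV and XVI belong to the fibril-associated collagens with interrupted triple helices (FACITs), the first 2 of which sit on the surface of collagen I fibers. Collagens XV and XVIII are the multiplexins, proteoglycans of basement membrane zones whose C-terminal ends can be released as endostatin-type fragments, and collagen VIII is a short-chain, network-forming collagen of vessel walls.

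Levels are in FPKM, a fragment count scaled by transcript length and by the mapped total, which allows levels of different genes to be compared. The difference between the groups was computed on log2(FPKM + 1) with limma for the 11029 genes that reached 1 FPKM in 3 or more samples, a filter that all 10 members passed. Adding 1 understates the change of low genes. Genes with an unadjusted P under 0.05 are called differentially expressed genes (DEGs), whichever way they moved. Over all genes tested, 358 (3.25%) were upregulated and 581 (5.27%) were downregulated DEGs, so 939 genes passed unadjusted. After Benjamini-Hochberg adjustment of limma's P, 0 genes were under 0.05 and the smallest value was 0.106. The tissue label was met by the ventricular light chain MYL2, which was between 4149 and 5033 FPKM. The atrial light chain MYL4 was between 0.78 and 17.6 FPKM and was highest in DAC replicate 6. SLN, another atrial gene, was at 9.83 FPKM in DAC replicate 6 and between 0.278 and 1.44 FPKM in the other samples. The atrial genes MYL7 and NPPA are not among the genes listed, and neither are the cardiomyocyte genes MYH6, PLN and TTN. Absence from the list therefore does not show that a gene was not expressed. The study measured NPPA (ANP) in left ventricles by RT-qPCR and found it higher in the DAC group. The mitochondrially encoded genes made up 24.0% to 25.3% of all FPKM in the sham samples, 27.1% to 27.2% in DAC replicates 4 and 6 and 32.8% in DAC replicate 5. Read depth is unknown for these FPKM, and the precision of a value is given by the spread between minipigs.

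None of the 10 collagens was a DEG in either direction with limma's moderated variances, where 3.25% and 5.27% of all genes tested were. None was a DEG with unmoderated variances either. Their adjusted P lay between 0.615 and 0.949 with limma, and the exact two-sided permutation P lay between 0.2 and 0.9, where 0.1 is the smallest that 3 minipigs against 3 allow. In FPKM as deposited, the groups overlapped in all 10 genes. The groups were apart with DAC higher in 6.01% and with DAC lower in 8.91% of all genes tested. With 10 genes, counts of 0 are close to what such shares give. Overlap was not examined under the other scalings. Of the 10 collagens, 9 had their higher mean in DAC minipigs, compared with 46.6% of all genes. The sample with the highest value was a DAC sample for all 10, compared with 51.8% of all genes. It was DAC replicate 6 for COL6A1, COL6A2, COL6A3, COL6A6, COL8A1 and COL15A1, and DAC replicate 4 for COL12A1, COL14A1, COL16A1 and COL18A1. The lowest value was in sham replicate 2 for 6 of the genes, in sham replicate 1 for 3 and in DAC replicate 6 for COL18A1. The 10 genes were measured in the same minipigs and are not independent, so these counts are a description. The direction of the difference turned for COL6A2, COL8A1, COL15A1, COL16A1 and COL18A1 when a single sample was left out. The median difference on the log2 scale was 0.14 for the 10 genes and -0.016 for all genes tested, and the median standard error of the 10 was 0.17.

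**Figure D1:**
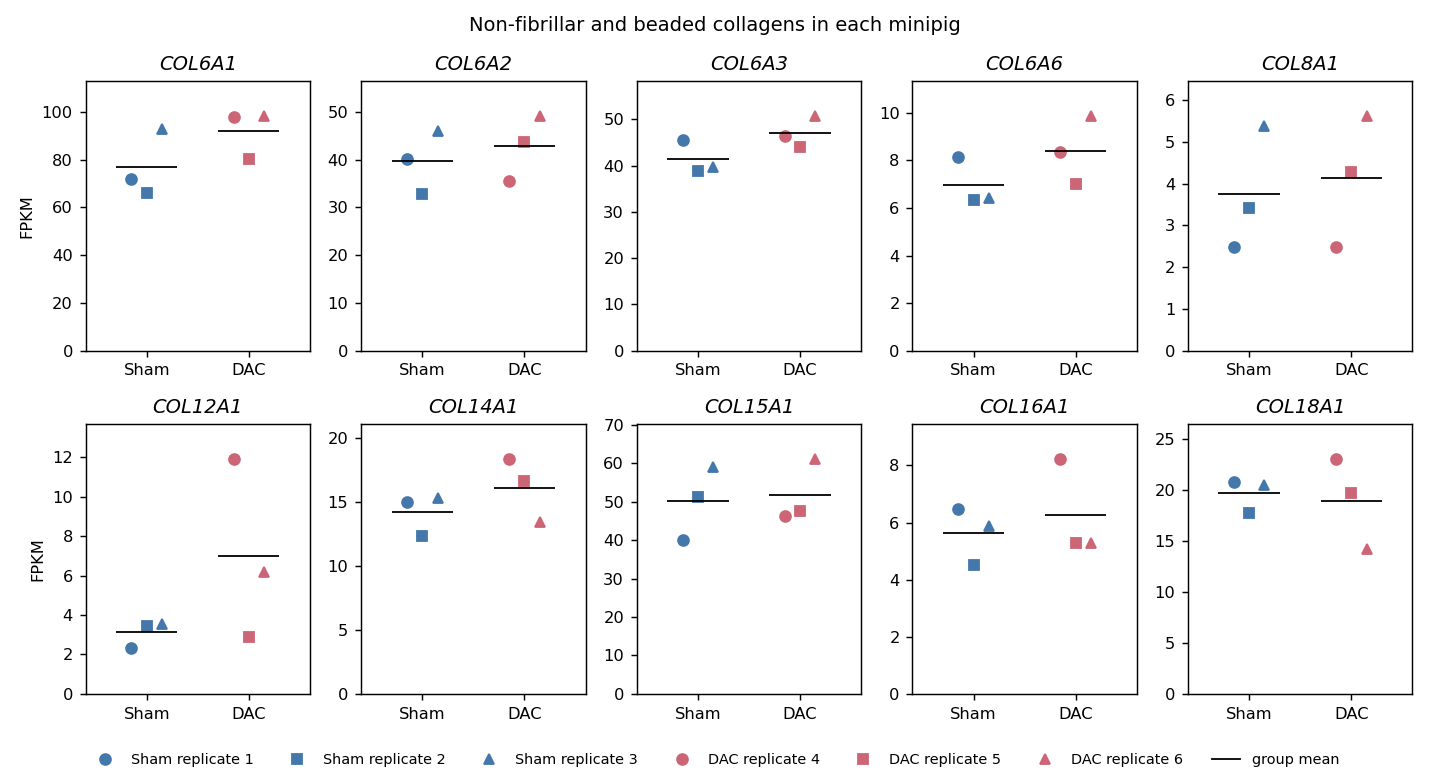
FPKM of each of the 10 collagens (vertical axes, starting at 0) in the 3 sham and the 3 DAC minipigs (horizontal axes), with a point for each minipig and a line at the group mean. The 2 groups overlap in every panel, and the widest spread is that of COL12A1 in the DAC group, from 2.88 to 11.9 FPKM.

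COL6A1 (ENSSSCG00000022506, chromosome 13 from 208295240 to 208313127, build susScr11), the α1 chain of collagen VI, was the most abundant of the 10 genes. It was at 71.8, 65.9 and 92.9 FPKM in sham replicates 1 to 3 and at 97.8, 80.2 and 98.2 FPKM in DAC replicates 4 to 6. DAC replicates 4 and 6 were above every sham sample, and DAC replicate 5 was below sham replicate 3. The means were 76.9 ± 14.2 FPKM (SD, n = 3) and 92.1 ± 10.3 FPKM (SD, n = 3). The log2 fold change was 0.27 (95% interval -0.11 to 0.64, adjusted P = 0.658 from limma), and it depended on single sham samples. Without sham replicate 3 COL6A1 became an upregulated DEG (log2 fold change 0.41, adjusted P = 0.841 from limma), and without sham replicate 2 the log2 fold change was 0.16.

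COL6A2 (ENSSSCG00000028022, unplaced scaffold AEMK02000328.1 from 596476 to 630178), the α2 chain, was at 40.1, 32.9 and 46.0 FPKM in the sham samples and at 35.6, 43.8 and 49.1 FPKM in the DAC samples. The lowest DAC value, in replicate 4, was below sham replicates 1 and 3, so the order of the minipigs was not that of COL6A1, where DAC replicate 4 was among the highest. For COL6A2 the log2 fold change was 0.11 (95% interval -0.29 to 0.50, adjusted P = 0.871 from limma). COL6A3 (ENSSSCG00000027331, chromosome 15 from 137011433 to 137103709), the long α3 chain from which the fragment endotrophin is cut, was at 45.6, 38.9 and 39.7 FPKM in the sham samples and at 46.5, 44.1 and 50.7 FPKM in the DAC samples. Of all the members it had the smallest standard error, 0.11. In FPKM as deposited, only sham replicate 1 overlapped the DAC group, lying above DAC replicate 5. The log2 fold change of COL6A3 was 0.18 (95% interval -0.078 to 0.45, adjusted P = 0.662 from limma). It was 0.23 with the mitochondrially encoded genes left out.

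COL6A6 (ENSSSCG00000037430, chromosome 13 from 1817404 to 1985803) encodes the α6 chain, which can take the place of α3. It was at 8.13, 6.33 and 6.43 FPKM in the sham samples and at 8.36, 7.01 and 9.86 FPKM in the DAC samples. As in COL6A3, sham replicate 1 was above DAC replicate 5 and below the other DAC samples. For COL6A6 the log2 fold change was 0.24 (95% interval -0.12 to 0.59, adjusted P = 0.684 from limma), and it was 0.13 without DAC replicate 6. The related gene COL6A5, for the α5 chain, lies on the same chromosome from 2029946 to 2174384 and was under the filter, at 0.423, 0.869 and 0.116 FPKM in the sham and 1.55, 1.30 and 0.698 FPKM in the DAC samples.

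The proportions of the collagen VI chains within a minipig do not depend on how the sample was scaled, and they were compared as ratios of FPKM. The ratio of COL6A2 to COL6A1 was 0.558, 0.500 and 0.495 in the sham samples and 0.364, 0.546 and 0.501 in the DAC samples. DAC replicate 4 was the lowest, and the other DAC samples were within the sham range (difference in mean log2 ratio -0.16, exact two-sided permutation P = 0.6). The ratio of COL6A3 to COL6A1 was between 0.428 and 0.634 in the sham and between 0.475 and 0.550 in the DAC samples (exact two-sided permutation P = 0.7). For COL6A3 to COL6A2 it was between 0.864 and 1.18 in the sham and between 1.01 and 1.31 in the DAC samples (exact two-sided permutation P = 0.7). The ratio of COL6A6 to COL6A3 was the narrowest, from 0.162 to 0.178 in the sham and from 0.159 to 0.194 in the DAC samples (exact two-sided permutation P = 0.6). The 4 tests share their chains, and all 4 ratios overlapped between the groups.

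**Figure D2:**
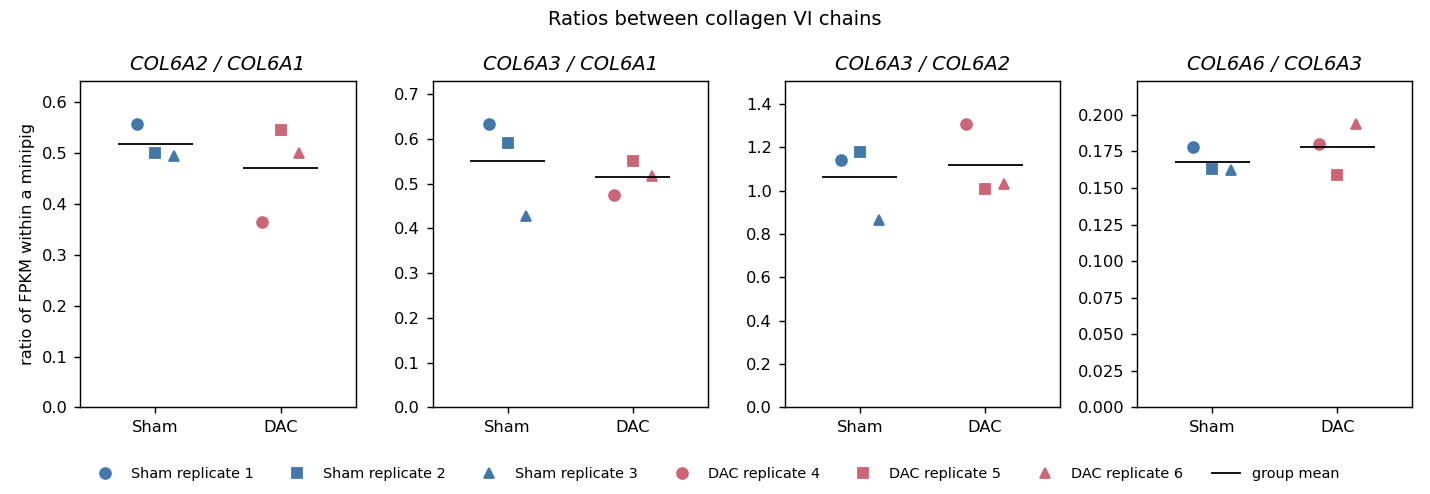
Ratios between the FPKM of collagen VI chains within each minipig (vertical axes, starting at 0), with a point for each of the 3 sham and 3 DAC minipigs and a line at the group mean. All 4 ratios overlap between the groups, and DAC replicate 4 stands lowest for COL6A2 to COL6A1, at 0.364.

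COL8A1 (ENSSSCG00000011973, chromosome 13 from 159216138 to 159374504), the α1 chain of collagen VIII, was at 2.49, 3.41 and 5.38 FPKM in the sham samples and at 2.49, 4.28 and 5.61 FPKM in the DAC samples. Both groups spanned almost the same range, and sham replicate 1 and DAC replicate 4 had equal values to 3 digits. Its log2 fold change was 0.10 with a wide 95% interval of -0.58 to 0.79 (adjusted P = 0.937 from limma), which on the scale of FPKM + 1 runs from 0.667 to 1.73 times the sham level.

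Among the FACITs, COL12A1 (ENSSSCG00000004484, chromosome 1 from 90744429 to 90875118) had the largest difference of all 10 genes and the largest spread. Collagen XII bridges neighboring collagen I fibers and is known to be abundant in tissues under tension, such as tendon. It was at 2.35, 3.47 and 3.54 FPKM in the sham samples and at 11.9, 2.88 and 6.18 FPKM in the DAC samples. DAC replicates 4 and 6 were above all sham samples, whereas DAC replicate 5 lay within the sham range. Sham minipigs averaged 3.12 ± 0.667 FPKM (SD, n = 3) and DAC minipigs 7 ± 4.58 FPKM (SD, n = 3). This gave a log2 fold change of 0.80 (standard error 0.40, 95% interval -0.14 to 1.74, adjusted P = 0.615 from limma), and the exact two-sided permutation P was 0.3. Without DAC replicate 5, the DAC sample within the sham range, COL12A1 became an upregulated DEG (log2 fold change 1.24, adjusted P = 0.41 from limma). Without DAC replicate 4 the log2 fold change was 0.37. Some other genes had their lowest DAC value in DAC replicate 5 as well, among them the members COL6A1, COL6A3 and COL6A6. The members COL6A2, COL8A1, COL14A1, COL15A1, COL16A1 and COL18A1 did not, nor did the matrix genes FN1, LUM and BGN. The share of all genes with their lowest DAC value in DAC replicate 5 was not computed. FMOD, a proteoglycan that binds collagen fibers, was at 3.86 FPKM there against 11.8 and 6.86 FPKM in DAC replicates 4 and 6. For THBS4, a matricellular protein, DAC replicate 5 was at 18.0 FPKM against 65.5 and 53.2 FPKM, and for MYL4 at 0.78 FPKM against 9.22 and 17.6 FPKM. THBS4 and MYL4 were named after their values were seen. The part of such differences between DAC samples in the result for COL12A1 was not tested.

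COL14A1 (ENSSSCG00000005997, chromosome 4 from 18690197 to 19060783) encodes collagen XIV, which lies on collagen I fibers and limits their diameter during growth. It was at 15.0, 12.3 and 15.3 FPKM in the sham samples and at 18.3, 16.6 and 13.4 FPKM in the DAC samples. DAC replicates 4 and 5 were above all sham samples and DAC replicate 6 was below sham replicates 1 and 3. The log2 fold change was 0.17 (95% interval -0.18 to 0.51, adjusted P = 0.759 from limma). Leaving out sham replicate 2 gave 0.074, leaving out DAC replicate 4 gave 0.076 and leaving out DAC replicate 6 gave 0.29. The annotated position of COL14A1 overlaps that of DEPTOR on the same strand, and the handling of fragments common to both genes is not given in the sources used here.

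COL16A1 (ENSSSCG00000003603, chromosome 6 from 88177831 to 88242747) was at 6.48, 4.5 and 5.89 FPKM in the sham samples and at 8.21, 5.3 and 5.27 FPKM in the DAC samples. Only DAC replicate 4 was above the sham samples. For COL16A1 the log2 fold change was 0.12 (95% interval -0.33 to 0.57, adjusted P = 0.878 from limma). Of the summed FPKM of the 10 genes, the 3 FACITs together made 8.39% to 9.41% in the sham samples, 12.9% in DAC replicate 4, 9.14% in DAC replicate 5 and 7.92% in DAC replicate 6. Their share was therefore outside the sham range on both sides within the DAC group. The ratio of COL12A1 to COL14A1 was 0.157, 0.283 and 0.231 in the sham samples and 0.653, 0.173 and 0.462 in the DAC samples, with DAC replicates 4 and 6 above the sham range and DAC replicate 5 within it (exact two-sided permutation P = 0.3).

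The multiplexins were the members closest to equal means. COL15A1 (ENSSSCG00000005380, chromosome 1 from 240653017 to 240829188), which in muscle and heart lies in the zone between basement membrane and interstitium, was at 40.1, 51.1 and 59.1 FPKM in the sham samples and at 46.4, 47.7 and 61.0 FPKM in the DAC samples. All but the highest DAC value were within the sham range. COL15A1 had a log2 fold change of 0.051 (95% interval -0.36 to 0.46, adjusted P = 0.949 from limma). COL18A1 (ENSSSCG00000038089, chromosome 13 from 207907857 to 207985181), the source of endostatin, was at 20.8, 17.7 and 20.5 FPKM in the sham samples and at 23.0, 19.7 and 14.2 FPKM in the DAC samples. It was the only member with a lower mean in the DAC group, 19.0 ± 4.43 FPKM (SD, n = 3) against 19.7 ± 1.73 FPKM (SD, n = 3), and its DAC values lay both above and below the sham range. COL18A1 had a log2 fold change of -0.074 (95% interval -0.49 to 0.35, adjusted P = 0.923 from limma). The ratio of COL15A1 to COL18A1 was 1.93, 2.89 and 2.88 in the sham samples and 2.02, 2.42 and 4.30 in the DAC samples. DAC replicate 6, which had the highest COL15A1 and the lowest COL18A1, had the highest ratio (exact two-sided permutation P = 0.8).

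By mean FPKM over the 6 minipigs, the order of levels was COL6A1 (84.5), COL15A1 (50.9), COL6A3 (44.2), COL6A2 (41.2), COL18A1 (19.3), COL14A1 (15.1), COL6A6 (7.69), COL16A1 (5.94), COL12A1 (5.06) and COL8A1 (3.94). COL6A1 stood at percentile 96.5 of all genes tested and COL8A1 at percentile 36.3. COL6A1 was above COL15A1 in 6 of 6 minipigs with no overlap of their ranges, as was COL6A2 above COL18A1 and COL14A1 above COL6A6. COL18A1 was also above COL14A1, and COL6A6 above COL16A1, in 6 of 6 minipigs, though their ranges overlapped. The order was not kept within minipigs for COL15A1 over COL6A3 (4 of 6), COL6A3 over COL6A2 (5 of 6), COL16A1 over COL12A1 (4 of 6) and COL12A1 over COL8A1 (3 of 6). The 4 collagen VI genes held 60.9% to 66.3% of the summed FPKM of the 10 genes. In the RefSeq gene list used, COL6A1 had no entry under its symbol and COL6A2 had one without a known chromosome. How complete these gene models are, on which levels and chain ratios depend, was not tested.

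The other collagens were examined as the nearest relatives of these genes. Of 11 fibrillar collagen genes, 7 passed the filter, and 4 of these were upregulated DEGs (COL1A1, COL1A2, COL3A1 and COL5A2), against 3.25% of all genes. COL1A1, the α1 chain of collagen I, was at 102, 78.5 and 102 FPKM in the sham samples and at 189, 170 and 137 FPKM in the DAC samples (log2 fold change 0.81, adjusted P = 0.379 from limma). COL3A1, the chain of collagen III, was at 177, 158 and 183 FPKM in the sham samples and at 237, 223 and 255 FPKM in the DAC samples (log2 fold change 0.46, adjusted P = 0.460 from limma). In both of these genes every DAC sample was above every sham sample. All 4 of these DEGs are among the fibrosis genes picked in the study from the same samples, so their direction is not independent evidence. Of 6 collagen IV genes 4 were tested, and COL4A5 was an upregulated DEG, with a log2 fold change of 0.55. The most abundant of them, COL4A2, was at 152, 149 and 159 FPKM in the sham and at 135, 115 and 148 FPKM in the DAC samples (log2 fold change -0.21, adjusted P = 0.648 from limma). Of 20 other genes on the list of non-fibrillar collagens, only COL21A1 and COL28A1 passed the filter. COL21A1, a FACIT like collagens XII, XIV and XVI, was at 0.552, 0.506 and 0.629 FPKM in the sham and at 1.48, 1.46 and 1.52 FPKM in the DAC samples, and was an upregulated DEG (log2 fold change 0.67, adjusted P = 0.270 from limma). It passed the filter through the DAC samples alone.

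**Figure D3:**
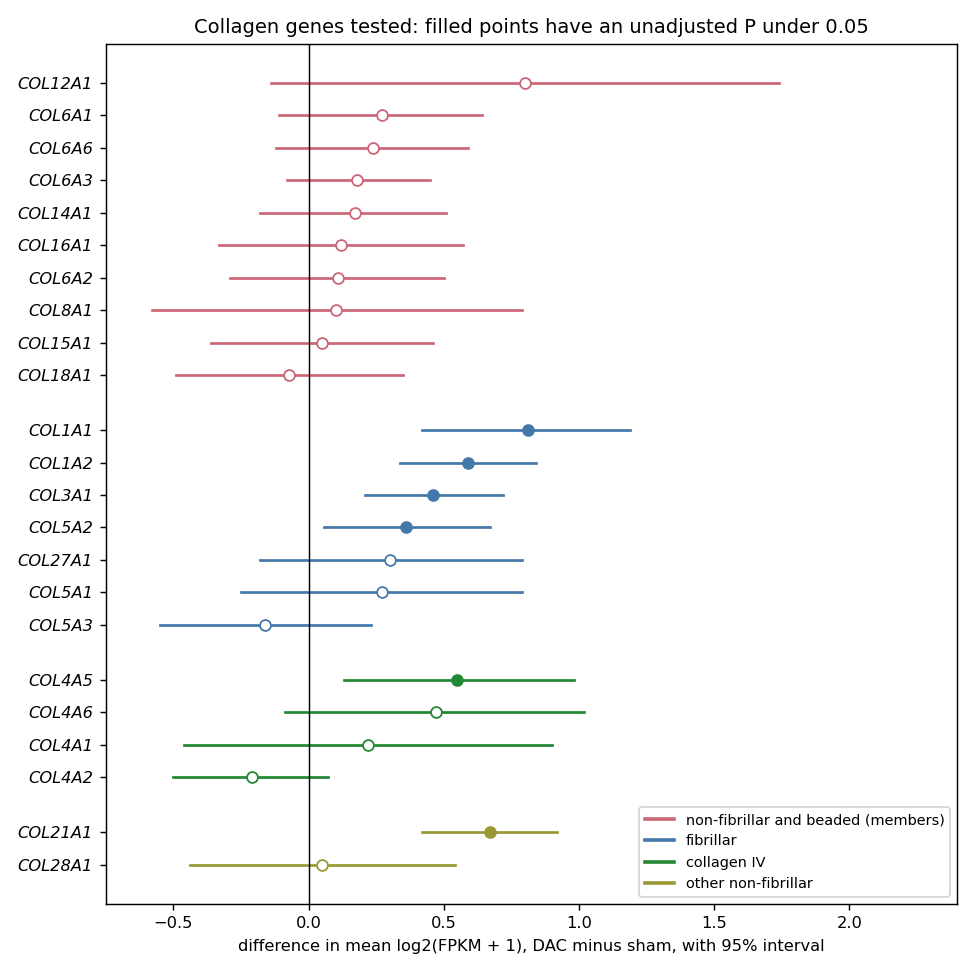
Difference in mean log2(FPKM + 1) between DAC and sham minipigs (horizontal axis, points) with its 95% interval from limma (lines) for the tested collagen genes (vertical axis), colored by class, where filled points have an unadjusted P under 0.05. All 10 member intervals include 0, while those of COL1A1, COL1A2, COL3A1, COL5A2 and COL4A5 lie above it, as does that of COL21A1, which was tested only because its DAC samples passed the filter.

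Whether the members differed from collagens I and III in their response was examined with the ratio of each to COL1A1 and to COL3A1 within a minipig, a comparison chosen after the values were seen. Both denominators were higher in every DAC than in every sham sample. The ratio of a gene with equal levels in both groups is therefore lower in DAC minipigs, and the permutation P does not test the members apart from that. The ratio to COL1A1 was lower on average in DAC minipigs for 9 of the 10 genes, all but COL12A1. The share of all genes with a lower average ratio was not computed, but it is no smaller than the 74.7% given below for separated groups. The 9 of 10 is therefore not read as a result about the members. The ratio did not overlap between the groups for COL6A2, COL6A3, COL14A1, COL16A1 and COL18A1. For these 5 genes the exact two-sided permutation P was 0.1, the smallest possible. It was 0.2 after adjustment over the 10 ratios, which share their denominator. This P cannot tell the 5 genes from genes with equal levels, because the denominator alone separates the groups. The ratio of COL14A1 to COL1A1 was 0.147, 0.156 and 0.15 in the sham samples and 0.0966, 0.0977 and 0.0978 in the DAC samples, so that its groups were each narrow and apart. The ratio of COL18A1 to COL1A1 had the largest difference, -0.89 in mean log2 ratio. A ratio to COL1A1 that was lower in every DAC than in every sham sample was found in 74.7% of all genes tested, so the 5 of 10 are no more than the background gives. Against COL3A1, the ratio did not overlap for 4 of the 10 genes (COL6A2, COL6A3, COL14A1 and COL18A1), compared with 57.9% of all genes tested.

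The collagen FPKM was summed over the 28 listed genes of the collagen lists, among them EMID1, which is not named a collagen. Of this sum the 10 members took 27.4%, 29.0% and 29.9% in the sham samples and 26.1%, 25.8% and 26.9% in the DAC samples. Their share was lower in every DAC than in every sham sample, although their summed FPKM was not, at 253, 236 and 295 in the sham and 299, 272 and 314 in the DAC samples. The fibrillar collagens took 43.3% to 46.6% in the sham and 51.1% to 55.0% in the DAC samples. The collagen VI genes took 17.6% to 18.8% and 16.4% to 17.8%, and the multiplexins 6.61% to 8.42% and 6.06% to 6.44%, respectively. Collagen IV took 24.0% to 26.4% in the sham and 18.5% to 21.7% in the DAC samples. Shares within a sum depend on each other, so a higher fibrillar share lowers the others, and no test was made of them.

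**Figure D4:**
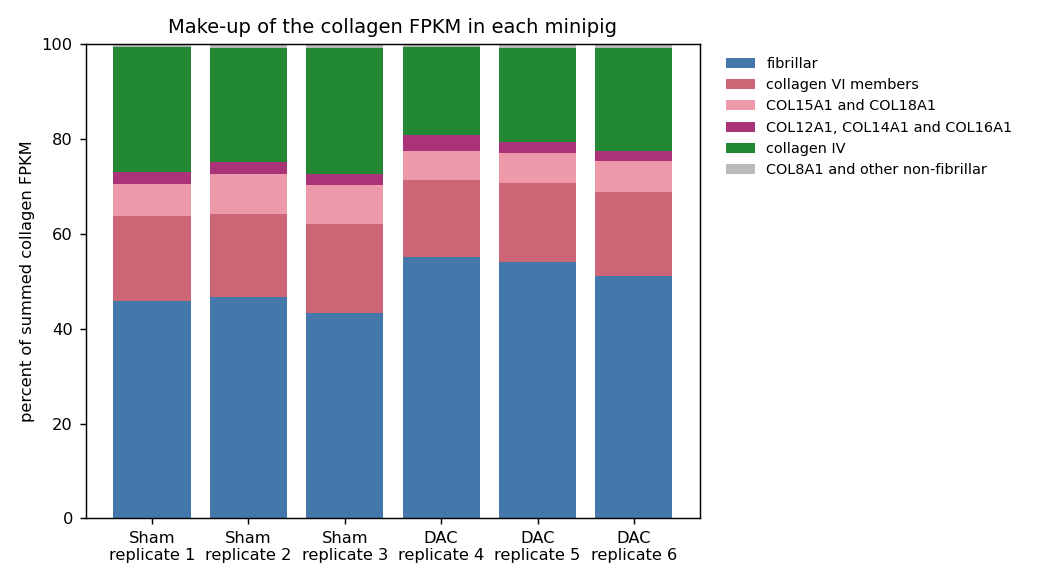
Share of each collagen class in the summed FPKM of the 28 listed genes of the collagen lists (vertical axis, percent) for each of the 3 sham and 3 DAC minipigs (bars). The fibrillar part is 43.3% to 46.6% in the sham and 51.1% to 55.0% in the DAC bars, and the 10 members together are 27.4% to 29.9% and 25.8% to 26.9%.

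Receptors and matrix partners of these collagens were taken as a list of 21 genes, of which 20 were tested. In this list 6 were upregulated DEGs, against 3.25% of all genes, none was a downregulated DEG, and the median log2 fold change was 0.13. ANTXR1, a receptor of the cell surface that binds collagen VI, was at 6.42, 7.01 and 6.97 FPKM in the sham and at 10.4, 8.06 and 11.5 FPKM in the DAC samples (log2 fold change 0.48, adjusted P = 0.505 from limma). The groups of ANTXR1 did not overlap. BGN, the proteoglycan biglycan, which binds collagen VI, was at 31.5, 25.6 and 29.6 FPKM in the sham and at 67.5, 67.2 and 34.0 FPKM in the DAC samples (log2 fold change 0.88, adjusted P = 0.508 from limma). GPC4, a glypican, had a log2 fold change of 0.68, FN1, fibronectin, of 0.98, and LUM, the proteoglycan lumican, of 0.74. The sixth of these DEGs was FMOD, with a log2 fold change of 0.87. Other partners did not pass the test, among them DCN, decorin, at 152, 139 and 158 FPKM in the sham and 99.8, 150 and 218 FPKM in the DAC samples, and CSPG4, a collagen VI receptor of pericytes, at a log2 fold change of -0.059. FN1 was also picked by the study from these samples and the list was written with earlier results known, so the count is a description.

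Of 21 genes for the hydroxylation, folding, export and cleavage of collagen chains, 18 were tested and 2 were upregulated DEGs, against 3.25% of all genes. These were PLOD2, a lysyl hydroxylase, with a log2 fold change of 0.53, and FKBP10, a chaperone of collagen chains, with a log2 fold change of 0.60. None was a downregulated DEG. The groups were apart with DAC higher in 2 of the 18 and with DAC lower in 2, P4HB and PLOD3, against 6.01% and 8.91% of all genes. The mean was higher in DAC than in sham minipigs for 8 of the 18, against 46.6% of all genes, with a median log2 fold change of -0.034 over the list. SERPINH1, the collagen chaperone HSP47, was at 32.5, 38.9 and 26.9 FPKM in the sham and at 21.7, 33.2 and 38.6 FPKM in the DAC samples, which overlapped.

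Cell type markers were examined beside these results, since the samples are whole tissue, in which fewer cells of a type and less RNA per cell cannot be told apart. Over all genes tested, 3.25% were upregulated and 5.27% were downregulated DEGs, so 1 DEG in a list of 10 is not far from these shares. Of 10 tested fibroblast markers, LSP1 was an upregulated DEG, and their summed FPKM was 241 to 254 in the sham and 232 to 310 in the DAC samples. Of 7 tested markers of activated fibroblasts, POSTN, periostin, was an upregulated DEG (log2 fold change 0.71), and the summed FPKM was 70.7 to 98.0 in the sham and 76.3 to 138 in the DAC samples. All 10 endothelial markers were tested. CLDN5 (log2 fold change -1.22) and VWF (-0.49) were downregulated DEGs, KDR (0.60) was an upregulated DEG, and the summed FPKM was 181 to 258 in the sham and 158 to 235 in the DAC samples. Of 10 smooth muscle and pericyte markers, CNN1 was an upregulated DEG, and the summed FPKM was 188 to 217 and 197 to 240. WT1, the only tested marker of the epicardium, was a downregulated DEG with a log2 fold change of -1.23. The other genes of that list were under the filter or not listed, so WT1 alone does not describe the cell type. The part of these cell types in the levels of the 10 collagens was not tested.

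Among the remaining marker lists, 1 of 8 tested cardiomyocyte genes (RYR2) and 1 of 6 leukocyte genes (CD163) were downregulated DEGs, against 5.27% of all genes. In addition, 1 of 3 Schwann cell genes (CDH19) was an upregulated DEG, against 3.25% of all genes. Counts in lists this short are a description. No DEG was found by limma at an unadjusted P under 0.05 among 3 atrial genes, 2 adipocyte genes and 1 red blood cell gene. In these lists the gene with the smallest P was SLN, LPL and HBB, with log2 fold changes of 1.27, -0.40 and -0.12.

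The genes whose log2(FPKM + 1) followed the mean of COL6A1, COL6A2 and COL6A3 most closely over the 6 minipigs, among the 11029 tested, were CD40 (Pearson's r = 0.984), MTMR7 (0.974) and LGALS8 (0.971). CD40, a receptor of the tumor necrosis factor family, was at 1.88, 1.49 and 2.23 FPKM in the sham and at 2.29, 2.30 and 3.04 FPKM in the DAC samples. These are the highest of 11029 correlations over 6 points from the same libraries and are given as a description.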

How the data were processed

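The authors deposited FPKM values for 6 ventricular samples, 3 sham and 3 DAC, in one table with a column for each minipig, and no replicates were pooled. Total RNA was made into NEBNext Ultra libraries and sequenced on an Illumina HiSeq with paired ends. The submitters' processing notes name HISAT2 and the build susScr11, and the program that made the FPKM is not given in the sources used here. No gene of the table stays under 0.5 FPKM in all samples, and the sums of FPKM were between 281377 and 308771. No steps of whole reads were seen: between any 2 samples, at most 0.364% of the genes under 1 FPKM shared the most frequent ratio. Of 2440 genes without a symbol, 520 were given one from a table of gene identifiers.

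Values were analyzed with R 4.3.3 and limma 3.58.1 as log2(FPKM + 1), with a linear model and moderated variances with a trend. P values were adjusted over all genes tested, and the steps were tested on simulated data. Each sample is 1 animal, and no batch is named. All 10 members are described, and of each other list the DEGs (up to 5 with the smallest P, and FMOD) or the gene with the smallest P, and of the other collagen lists also the gene with the highest mean FPKM. COL6A5, EMID1, DCN, CSPG4, SERPINH1, P4HB, PLOD3, THBS4, MYL2 and MYL4 were named outside that rule after their values were seen. The members and the lists were chosen with earlier results of these data known. Alternatives were to test all listed genes, a minimum of 5 FPKM, a pseudocount of 0.1, median scaling, quantile normalization, the mitochondrially encoded genes left out, the variance of each gene on its own, and each sample left out in turn. For the chain ratios, which were formed from FPKM as deposited, the alternative was the ratio of FPKM + 1. Ratios other than those between collagen VI chains were added after the values were seen.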

Additional observations from a re-analysis of the deposited data

How the results depend on the processing

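None of the 10 collagens was a DEG without a filter, with a minimum of 5 FPKM (where COL8A1 and COL12A1 were not tested), with a pseudocount of 0.1, under median scaling or quantile normalization, without the mitochondrially encoded genes or with the variance of each gene on its own. With 1 sample left out in turn, 0 to 1 of them were DEGs, which were COL6A1 without sham replicate 3 and COL12A1 without DAC replicate 5. The direction of the log2 fold change turned only when a sample was left out. It then ranged from -0.015 to 0.23 for COL6A2, from -0.10 to 0.36 for COL8A1, from -0.10 to 0.18 for COL15A1, from -0.063 to 0.21 for COL16A1 and from -0.22 to 0.11 for COL18A1, and the cause was not tested. The difference in mean log2 ratio ranged from -0.28 to 0.017 for COL6A2 to COL6A1, from -0.25 to 0.03 for COL6A3 to COL6A1 and from -0.065 to 0.16 for COL6A3 to COL6A2. Over all genes there were 939 DEGs, 579 with a minimum of 5 FPKM, where fewer genes were tested, and 600 to 1029 with 1 sample left out, the fewest without sham replicate 1. Downregulated DEGs were 61.9% of all DEGs, 71.5% with a minimum of 5 FPKM, 52.8% under median scaling, 52.9% under quantile normalization, 45.1% with the mitochondrially encoded genes left out and 50.8% without DAC replicate 5. With 3 minipigs in each group and unknown read depth, differences as small as those of most of these collagens were within the spread between animals.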
